A study of Homo sapiens with 24 samples.

Results

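The genes described here fold proteins in the endoplasmic reticulum (ER), remove those that fail to fold (ER-associated degradation, ERAD) or sense unfolded protein. They were taken by symbol from a list of 36 genes, of which 35 were present among the 22227 genes of the ligand tables and the 23028 genes of the siRNA tables. The symbol ERO1L was absent. The same gene was listed under its current symbol ERO1A, an oxidase that recharges protein disulfide isomerases, and it is left out of every count. All samples were LNCaP cells, an androgen-responsive human prostate adenocarcinoma line, kept for 3 days in phenol red-free RPMI with charcoal-stripped serum, which removes steroids. In the ligand experiment the cells received 10 μM enzalutamide (an antiandrogen drug, also named MDV) or 10 nM dihydrotestosterone (DHT, an androgen) for 4 or 24 h, or vehicle, with 2 replicates a group. A single vehicle group, whose time is not given, served as the control at both times. In the siRNA experiment the cells were transfected with a non-targeting siRNA pool (siControl) or a pool against GATA2 (siGATA2), a pioneer transcription factor, and 72 h later received either vehicle or enzalutamide at 25 μM over 24 h, with 3 replicates a group.

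The 10 ligand libraries held 38894876 to 59985287 estimated counts, shown as CPM (counts scaled by library size and TMM factors). The 12 siRNA libraries are deposited as RPKM (reads scaled by gene length and library size), and the sum of RPKM ran from 301300 to 317933. The 2 libraries of 4 h enzalutamide differed more (mean chi-square per gene 10.5) than the pairs of the other treated groups (2.09 to 4.84). GATA2 itself was lowered by its siRNA pool. GATA2 RPKM was 83.8, 77.03 and 86.1 in siControl cells with vehicle and 128, 132 and 128 with enzalutamide, against 54.3, 53.4 and 46.6 and 60.1, 64.7 and 61.5 in siGATA2 cells. The log2 difference between siGATA2 and siControl was -0.68 ± 0.06 (SE) with vehicle and -1.06 ± 0.06 with enzalutamide. In the ligand experiment GATA2 was at 223 and 237 CPM with vehicle. After 4 h of enzalutamide it was at 184 and 167 CPM, and after 24 h at 201 and 203 CPM. KLK3, which encodes prostate-specific antigen, changed by 3.04 (log2) after 24 h of DHT and by -1.22 after 24 h of enzalutamide. All 10 luminal prostate markers had a mean of at least 1 CPM and at least 1 RPKM. Of 15 basal, stromal, endothelial and leukocyte markers 5 reached 1 CPM and 4 reached 1 RPKM. Among these were VIM (mean 10.7 CPM and 20.04 RPKM) and COL1A1 (22.4 CPM and 12.98 RPKM). By RPKM both were above the luminal marker KLK2 (10.4 RPKM), which was higher than both by CPM (45.6 CPM). VWF reached 15.3 CPM and CD68 7.84 RPKM. KRT5, TP63, PTPRC and CD3E stayed near or at 0, and the summed CPM of all 15 ran from 48.4 to 56.5 over the libraries. Values are shares of the RNA of a culture, so fewer cells and less RNA per cell cannot be told apart.

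Secreted and membrane proteins enter the ER through the SEC61 translocon and fold there with the Hsp70 chaperone BiP (HSPA5) and its co-chaperones, with the disulfide isomerases and, once glycosylated, with the lectins calnexin and calreticulin. Glycoproteins that fail are trimmed by EDEM proteins and leave through the SEL1L and SYVN1 ubiquitin ligase complex for destruction in the cytosol. The membrane sensors IRE1α (ERN1), PERK (EIF2AK3) and ATF6 start the unfolded protein response when unfolded protein accumulates, IRE1α by splicing the mRNA of the transcription factor XBP1. Luminal prostate cells secrete much protein, and several steps of this pathway serve secretion also without stress.

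Some of these genes share a promoter element. The genes were listed as parts of this pathway, so the element in them is a description and not an independent result. The ER stress response element (ERSE, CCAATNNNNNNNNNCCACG) and its variant ERSE-II (ATTGGNCCACG) are the known sites of ATF6 and XBP1. Promoters of 300 bases, from 250 before to 50 after the start, were read from RefSeq (GRCh38.p14) on both strands for 27305 genes, among them 32 of the genes described here. PDIA3, DERL1 and DERL3 were not in that table. ERSE was found in 25 genes of the table (0.0916%), and 7 of these are genes described here (CALR, CANX, CRELD2, HSP90B1, HSPA5, PDIA6 and XBP1). ERSE-II was found in 19 genes (0.0696%), and 3 of these are HERPUD1, HYOU1 and SDF2L1. The XBP1 site core TGACGTGG was found in 253 genes (0.927%), and HYOU1 was the member that held it, overlapping 1 of its 2 ERSE-II. A match of letters is a description and was not tested as a binding site. The stretches below are those of 6 carriers, picked because they moved differently with the ligands, as given further on. These 6 genes do not stand for all carriers of the elements. The stretches run 5′ to 3′ on the strand of the gene, with the elements in capitals.
HSPA5: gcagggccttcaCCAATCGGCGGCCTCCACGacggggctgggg
HSP90B1: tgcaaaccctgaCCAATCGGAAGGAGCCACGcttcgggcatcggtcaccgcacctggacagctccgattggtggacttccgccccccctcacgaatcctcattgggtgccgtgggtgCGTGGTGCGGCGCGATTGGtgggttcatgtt
XBP1: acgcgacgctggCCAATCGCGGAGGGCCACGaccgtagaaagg
HERPUD1: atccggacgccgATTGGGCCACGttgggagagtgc
HYOU1: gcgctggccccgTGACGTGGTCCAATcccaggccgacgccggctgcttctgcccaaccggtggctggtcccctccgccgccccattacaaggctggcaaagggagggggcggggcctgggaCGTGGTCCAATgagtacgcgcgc
SDF2L1: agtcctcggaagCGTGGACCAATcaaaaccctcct
The stretches lie at HSPA5 chr9:125241379-125241421 (minus strand), HSP90B1 chr12:103930204-103930351 (plus strand), XBP1 chr22:28800591-28800633 (minus strand), HERPUD1 chr16:56932013-56932047 (plus strand), HYOU1 chr11:119057262-119057405 (minus strand) and SDF2L1 chr22:21642102-21642136 (plus strand), all in GRCh38.p14.

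Levels between genes were compared per length, as RPKM in siControl cells with vehicle (n = 3). The 35 genes spanned from 935 ± 33.3 RPKM (SD) for CALR, the calcium-binding lectin calreticulin, to 1.11 ± 0.101 for DERL3, a channel protein of ERAD. The genes at 100 RPKM or more numbered 12. They were chaperones and folding enzymes (CALR, HSP90B1, P4HB, HSPA5, PDIA4, CANX, MANF, PDIA3 and PDIA6), both translocon genes and XBP1. The genes under 10 RPKM numbered 6, namely DERL3, ERN1 (5.84 ± 0.217), EIF2AK3 (6.64 ± 0.284), DERL2, DNAJB9 and ATF6 (9.71 ± 0.107), so all 3 sensors were among the lowest. Neighbours in this order often overlapped: CANX, SEC61A1 and MANF had means of 159.8, 159.8 and 159 RPKM with overlapping libraries.

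**Figure D1:**
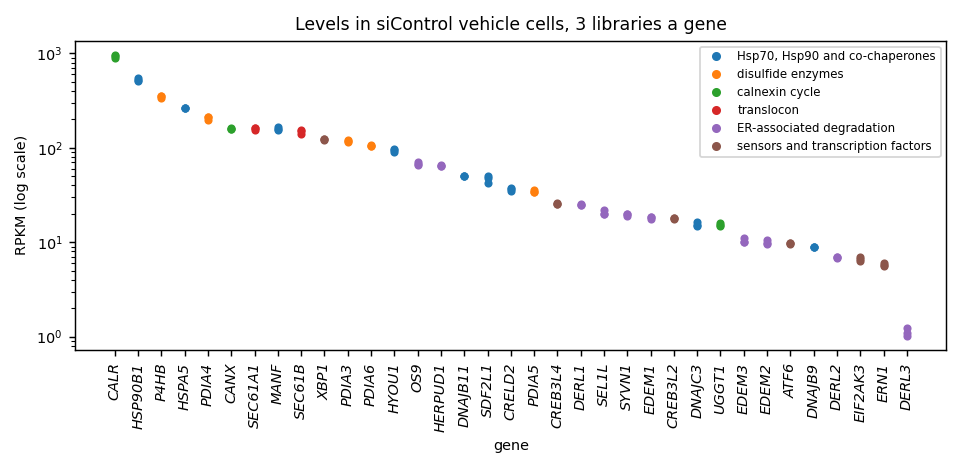
RPKM of the 35 genes in siControl cells with vehicle, on a log axis, with a point for each of 3 libraries and the role as color. CALR is highest at about 935 RPKM and DERL3 lowest at about 1.11, and the sensors ATF6, EIF2AK3 and ERN1 sit near the low end.

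In the ligand experiment both ligands moved most of these genes by 24 h, with different genes in front. A gene was called at an adjusted p below 0.05 (edgeR, Benjamini-Hochberg over the 15555 genes tested). After 4 h of enzalutamide 10 genes were higher and 1 was lower than with vehicle, where 6.94% of all genes tested were called higher and 6.68% lower. After 24 h 22 were higher and 4 lower, against 16.4% and 17% of all genes. After 4 h of DHT 3 were higher and 1 was lower (4.66% and 2.11% of all genes), and after 24 h 22 were higher and 3 lower (26.9% and 23.2%). The median log2 fold change of the 35 genes was 0.04 and 0.17 after 4 and 24 h of enzalutamide and 0.03 and 0.22 after 4 and 24 h of DHT, while that of all genes tested lay between -0.01 and 0.01. Most changes were small, and without 1 library some counts fell by more than 1.5 times. The count for 4 h of enzalutamide was 6 without vehicle replicate 2 or without the second library of that group, that for 24 h was 17 without vehicle replicate 1 and 16 without either library of that group, and that for 4 h of DHT was 2 without the second library of that group. The column names carry 1 of 3 prefixes whose meaning is not given in the sources used here. Both libraries of 4 h enzalutamide carry 1 of them and both of 24 h enzalutamide another, the libraries of 4 h DHT share the third with vehicle replicate 2, those of 24 h DHT carry the enzalutamide prefixes, and a column numbered vehicle replicate 1 exists under each. Each treated library was also set against the column of vehicle replicate 1 with its prefix. All 11, 26, 4 and 25 called genes kept their direction in both libraries of a group. The log2 difference moved by at most 0.15. The calls came from the same treated libraries and a vehicle that holds these columns, so this agreement is not independent of them.

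**Figure D2:**
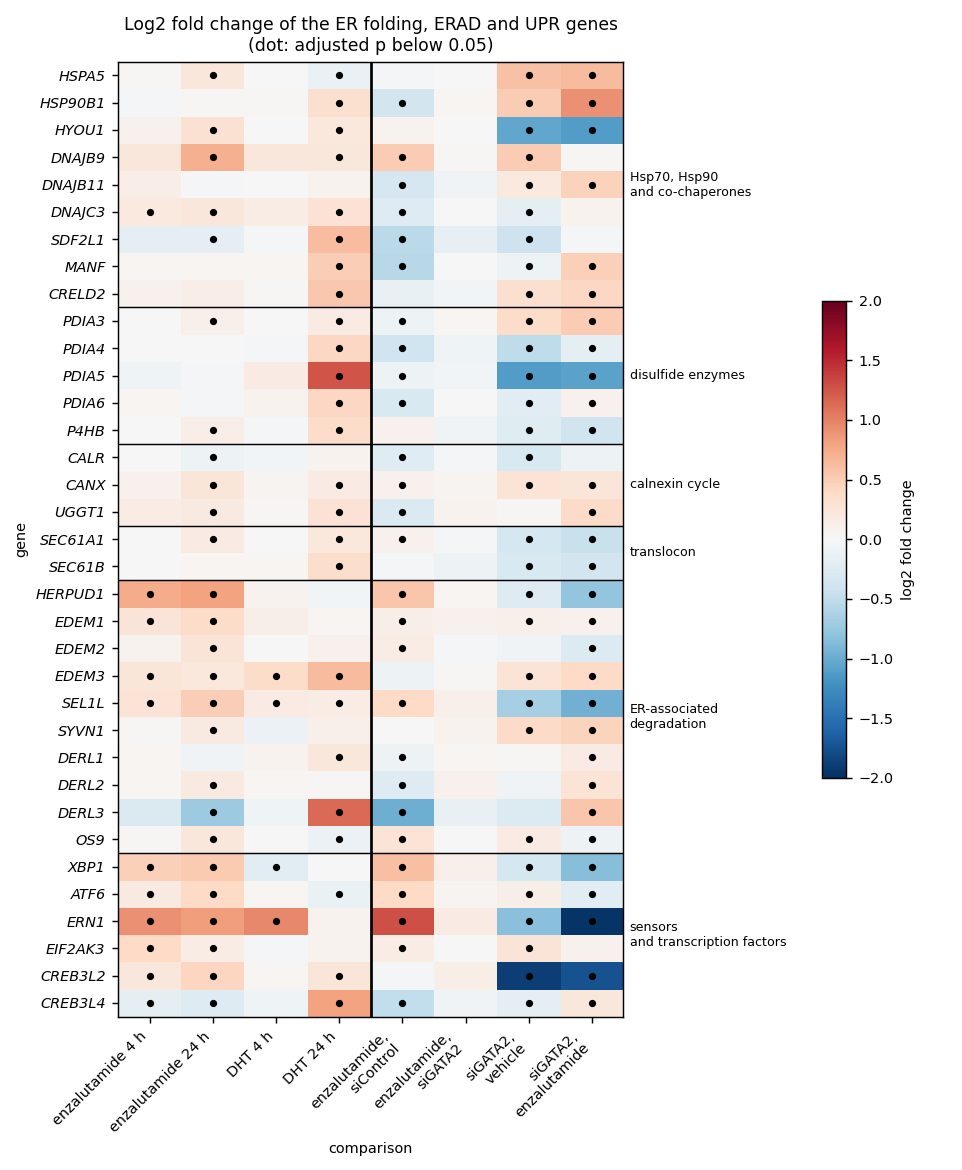
Log2 fold change of the 35 genes, grouped by role, in 4 ligand comparisons with vehicle (left of the heavy line) and in 4 comparisons of the siRNA experiment, with red for higher and blue for lower in the treated or silenced group and a dot for an adjusted p below 0.05. ERN1, HERPUD1 and XBP1 are red with enzalutamide, DERL3 and PDIA5 with 24 h of DHT, and the column of enzalutamide in siGATA2 cells has no dot.

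Among the 6 sensors and transcription factors, 5 were higher and 1 was lower after both 4 and 24 h of enzalutamide. Of all genes tested, 6.94% were called higher and 6.68% lower at 4 h, and 16.4% and 17% at 24 h. ERN1 CPM was 35.05 and 34.8 in the vehicle libraries, 61.001 and 70.2 after 4 h and 59.4 and 64.98 after 24 h of enzalutamide, and 67.5 and 67.8 after 4 h and 36.97 and 36.5 after 24 h of DHT. ERN1, the IRE1α sensor, was above the vehicle libraries without overlap in all enzalutamide libraries and in those of 4 h of DHT, and close to them at 24 h of DHT. The log2 fold changes were 0.91 ± 0.06 (SE, adjusted p = 2.08e-06, edgeR) and 0.83 ± 0.06 (adjusted p = 4.07e-07) with enzalutamide, and 0.95 ± 0.06 (adjusted p = 3.56e-07) and 0.07 ± 0.07 (adjusted p = 0.383) with DHT. The fall between 4 and 24 h of DHT was itself past the threshold (log2 -0.88 ± 0.06, adjusted p = 1.57e-07). XBP1 CPM was 189 and 175 in the vehicle libraries, 255 and 254 after 4 h and 261 and 262 after 24 h of enzalutamide, and 158 and 155 after 4 h and 184 and 181 after 24 h of DHT. XBP1, whose mRNA IRE1α splices, was thus higher with enzalutamide at both times and lower at 4 h of DHT. Its log2 fold changes were 0.48 ± 0.04 (adjusted p = 4.99e-06, edgeR) and 0.52 ± 0.04 (adjusted p = 2.37e-07) with enzalutamide and -0.22 ± 0.04 (adjusted p = 0.00242) at 4 h of DHT, the last not called without the second DHT library of that time (adjusted p from 1.36e-05 to 0.0564 over all alternatives). Values per gene do not separate its spliced from its unspliced form.

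ATF6 CPM was 91.8 and 88.8 in the vehicle libraries, 101 and 103 after 4 h and 119 and 119 after 24 h of enzalutamide, and 91.7 and 93.3 after 4 h and 83.4 and 81.6 after 24 h of DHT. The ATF6 sensor rose with enzalutamide, log2 0.18 ± 0.04 at 4 h (adjusted p = 0.00706, edgeR) and 0.40 ± 0.04 at 24 h (adjusted p = 2.34e-06), and fell after 24 h of DHT, log2 -0.13 ± 0.04 (adjusted p = 0.0105). It also rose between 4 and 24 h of enzalutamide, by 0.22 ± 0.04 (adjusted p = 0.000687). The call at 4 h was lost without vehicle replicate 2 and that for DHT without vehicle replicate 1 or the second DHT library (adjusted p up to 0.0627 and 0.0882). EIF2AK3 CPM was 37.3 and 39.8 in the vehicle libraries, 48.5 and 52.3 after 4 h and 42.6 and 43.1 after 24 h of enzalutamide, and 37.8 and 37.4 after 4 h and 40.7 and 39.8 after 24 h of DHT. EIF2AK3, the PERK kinase, moved the other way in time: it rose by 0.39 ± 0.05 at 4 h (adjusted p = 0.000318, edgeR), stood at 0.16 ± 0.05 at 24 h (adjusted p = 0.0319, a call lost in 11 of the alternatives, among them DESeq2, without vehicle replicate 1 and without either enzalutamide library, with adjusted p from 0.0109 to 0.282) and differed between these times by -0.24 ± 0.05 (adjusted p = 0.00416). CREB3L4 CPM was 71.2 and 72.1 in the vehicle libraries, 64.7 and 60.3 after 4 h and 58.9 and 61.1 after 24 h of enzalutamide, and 66.5 and 67.9 after 4 h and 122 and 128 after 24 h of DHT. CREB3L4, an androgen-induced ER-bound transcription factor, was the member of this group that fell with enzalutamide and rose with DHT, with log2 fold changes of -0.26 ± 0.05 (adjusted p = 0.000931, edgeR) and 0.80 ± 0.05 (adjusted p = 1.29e-08) at 24 h. Its fall at 4 h of enzalutamide (-0.20) was not called without either vehicle library or the second enzalutamide library (adjusted p up to 0.0897). Its relative CREB3L2 ranged from 59.9 to 82.3 CPM over the libraries and was higher at 24 h with either ligand, log2 0.43 with enzalutamide and 0.24 with DHT.

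**Figure D3:**
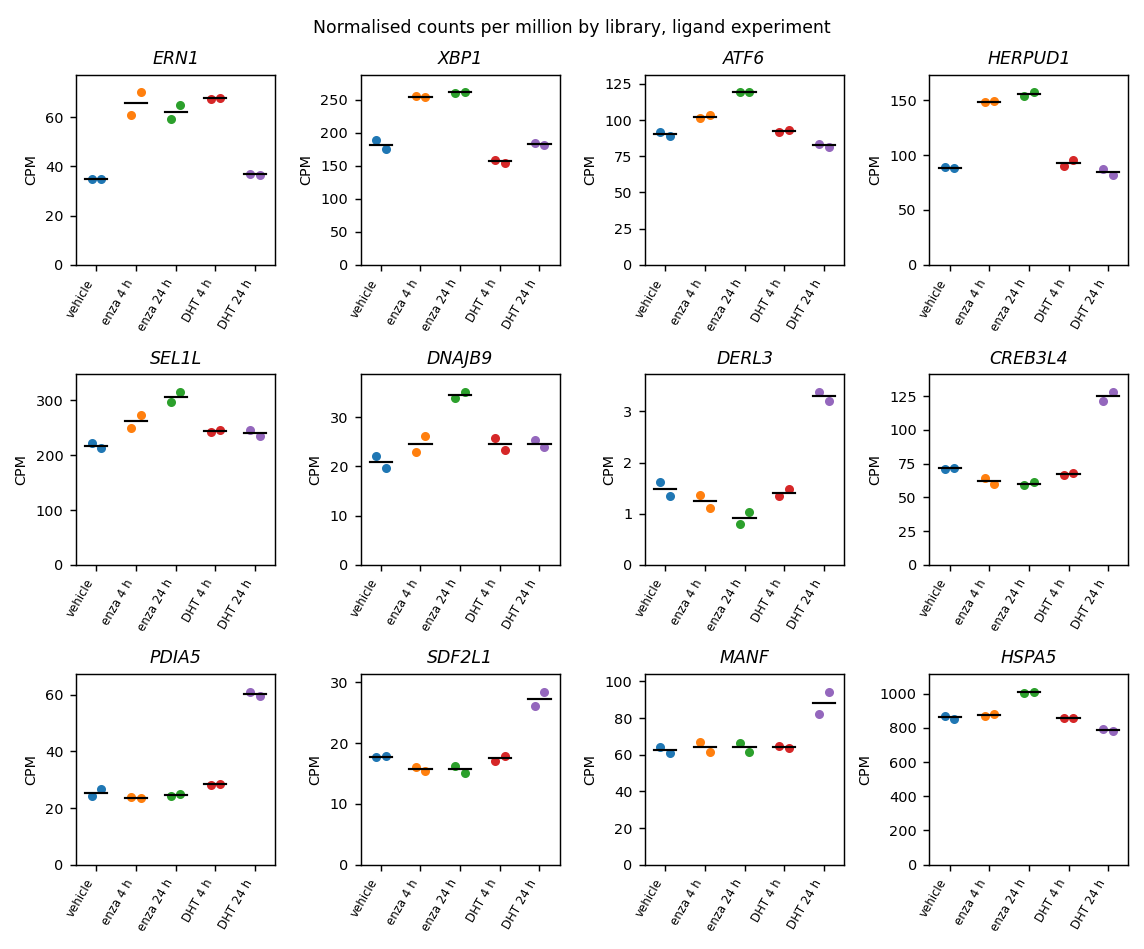
CPM (from 0) of 12 genes in the 10 ligand libraries; each point is a library and each bar the mean of 2. The enzalutamide libraries are above vehicle for ERN1, XBP1, ATF6, HERPUD1 and SEL1L at both times, and the DHT libraries of 24 h are the highest for DERL3, CREB3L4, PDIA5, SDF2L1 and MANF.

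Of the 10 ERAD genes, 4 were higher after 4 h of enzalutamide, beside 6.94% of all genes tested. After 24 h of enzalutamide 8 were higher and 1 was lower (16.4% and 17% of all genes). After 24 h of DHT 4 were higher and 1 was lower (26.9% and 23.2%). A further list of 20 ERAD genes had 5 higher and 6 lower after 24 h of enzalutamide. HERPUD1 CPM was 89.2 and 87.9 in the vehicle libraries, 148 and 149 after 4 h and 153 and 158 after 24 h of enzalutamide, and 90.3 and 95.7 after 4 h and 87.7 and 82.1 after 24 h of DHT. HERPUD1, a scaffold of the retrotranslocation complex, was above every vehicle and DHT library in all 4 enzalutamide libraries, with log2 fold changes of 0.75 ± 0.04 at 4 h (adjusted p = 3.54e-07, edgeR) and 0.81 ± 0.04 at 24 h (adjusted p = 8.23e-09). After 24 h of DHT its difference from vehicle was -0.06 ± 0.04 (adjusted p = 0.276). SEL1L CPM was 222 and 213 in the vehicle libraries, 249.98 and 273 after 4 h and 298 and 316 after 24 h of enzalutamide, and 243 and 247 after 4 h and 245 and 235 after 24 h of DHT. SEL1L, the adaptor of the SYVN1 ligase, increased from 4 to 24 h of enzalutamide by 0.23 ± 0.05 (adjusted p = 0.00282) to a log2 fold change of 0.50 ± 0.05 over vehicle (adjusted p = 2.73e-06). The difference between the times was not called without the second library of 24 h (adjusted p = 0.0565), and with DHT SEL1L was 0.17 and 0.15 over vehicle at 4 and 24 h, calls lost in 9 and 3 of the alternatives. EDEM1 CPM was 88.3 and 85.6 in the vehicle libraries, 96.7 and 110.00 after 4 h and 111 and 113 after 24 h of enzalutamide, and 95.4 and 93.7 after 4 h and 88.1 and 90.6 after 24 h of DHT. EDEM1, a mannose-trimming factor of glycoprotein disposal, was higher at 24 h of enzalutamide by 0.37 ± 0.05 (adjusted p = 0.000141, edgeR), and at 4 h by 0.25, a call lost without vehicle replicate 2 or the second enzalutamide library (adjusted p up to 0.0623).

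DERL3 CPM was 1.62 and 1.35 in the vehicle libraries, 1.36 and 1.11 after 4 h and 0.789 and 1.03 after 24 h of enzalutamide, and 1.34 and 1.49 after 4 h and 3.38 and 3.21 after 24 h of DHT. DERL3 thus went opposite ways with the ligands: the DHT libraries of 24 h were above all others and the enzalutamide libraries of 24 h below all others, at low levels throughout. The log2 fold change was 1.14 ± 0.17 with DHT (adjusted p = 8.46e-05, edgeR) and -0.72 ± 0.20 with enzalutamide (adjusted p = 0.0133), the latter not called by DESeq2, without vehicle replicate 1 or without the first enzalutamide library (adjusted p from 0.00251 to 0.125). Its paralogs did not follow it in size, with log2 differences at 24 h of DHT of 0.23 for DERL1 (adjusted p = 0.000488) and 0.03 for DERL2 (adjusted p = 0.683). Among the others, EDEM3 rose by 0.64 after 24 h of DHT (adjusted p = 2.51e-06) and OS9, a lectin of the ligase complex, was 0.23 with enzalutamide and -0.12 with DHT at 24 h (adjusted p = 0.000370 and 0.0174), the latter not called without vehicle replicate 2 or the first DHT library of 24 h (adjusted p up to 0.118). EDEM2, SYVN1 and DERL2 were between 0.17 and 0.26 higher at 24 h of enzalutamide, each with a call that DESeq2 did not make.

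Of the 9 chaperones of the Hsp70 and Hsp90 group and their co-chaperones, 4 were higher and 1 was lower after 24 h of enzalutamide. After 24 h of DHT 7 were higher and 1 was lower. Of all genes tested, 16.4% and 17% were called higher and lower with enzalutamide, and 26.9% and 23.2% with DHT. HYOU1, DNAJB9 and DNAJC3 were higher with either ligand. HSPA5 CPM was 871 and 854 in the vehicle libraries, 871 and 879.5 after 4 h and 1003 and 1012 after 24 h of enzalutamide, and 855 and 858 after 4 h and 795 and 779 after 24 h of DHT. BiP (HSPA5) was highest in the enzalutamide libraries of 24 h and lowest in the DHT libraries of 24 h, a difference from vehicle of 0.22 ± 0.03 (adjusted p = 3.13e-05, edgeR) and of -0.13 ± 0.03 (adjusted p = 0.00116). HSP90B1 CPM was 1014 and 988 in the vehicle libraries, 969 and 993 after 4 h and 1023 and 1009.5 after 24 h of enzalutamide, and 1026 and 1018 after 4 h and 1269 and 1238 after 24 h of DHT. HSP90B1, the ER Hsp90 (GRP94), did the reverse of HSPA5 with DHT, rising by 0.32 ± 0.03 at 24 h (adjusted p = 6.68e-07), and with enzalutamide it was at 0.02 ± 0.03 (adjusted p = 0.600). DNAJB9 CPM was 22.2 and 19.6 in the vehicle libraries, 22.9 and 26.2 after 4 h and 33.9 and 35.2 after 24 h of enzalutamide, and 25.7 and 23.3 after 4 h and 25.3 and 23.9 after 24 h of DHT. DNAJB9, an Hsp40 co-chaperone of BiP, rose by 0.72 ± 0.08 after 24 h of enzalutamide (adjusted p = 1.04e-05, edgeR), and the libraries of that group lay above all others. After 24 h of DHT it was at 0.23 ± 0.08 (adjusted p = 0.0271), a call lost with library size as the only scaling, without vehicle replicate 2 and without the first DHT library (adjusted p from 0.00310 to 0.182).

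SDF2L1 CPM was 17.7 and 17.8 in the vehicle libraries, 16.04 and 15.4 after 4 h and 16.2 and 15.2 after 24 h of enzalutamide, and 17.1 and 17.9 after 4 h and 26.1 and 28.5 after 24 h of DHT. SDF2L1, a partner of the ER Hsp40 proteins, rose by 0.62 ± 0.06 after 24 h of DHT (adjusted p = 2.65e-06, edgeR), and with enzalutamide it was at -0.18 ± 0.06, a call (adjusted p = 0.0468) lost in 12 of the alternatives (adjusted p from 0.0163 to 0.245). MANF CPM was 64.1 and 60.7 in the vehicle libraries, 67.1 and 61.7 after 4 h and 66.5 and 61.4 after 24 h of enzalutamide, and 64.6 and 63.5 after 4 h and 82.3 and 94.4 after 24 h of DHT. MANF, a secreted factor held in the ER by BiP, was higher after 24 h of DHT by 0.50 ± 0.07 (adjusted p = 3.25e-05) and overlapped vehicle with enzalutamide. CRELD2, which is often induced together with MANF, was likewise 0.53 at 24 h of DHT (adjusted p = 1.95e-06). HYOU1, the large Hsp110-type chaperone, rose with either ligand at 24 h, by 0.31 with enzalutamide and 0.22 with DHT (adjusted p = 4.67e-06 and 5.77e-05), as did DNAJC3, the inhibitor of PERK-type kinases, by 0.23 and 0.29. For DNAJB11 the log2 differences from vehicle were between -0.04 and 0.14 and none was called (edgeR), with an unadjusted p below 0.05 at 4 h of enzalutamide.

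All 5 disulfide enzymes were higher after 24 h of DHT, beside 26.9% of all genes tested. PDIA5 CPM was 24.1 and 26.6 in the vehicle libraries, 23.9 and 23.5 after 4 h and 24.4 and 24.8 after 24 h of enzalutamide, and 28.04 and 28.6 after 4 h and 61.1 and 59.7 after 24 h of DHT. PDIA5 rose by 1.26 ± 0.05 after 24 h of DHT (adjusted p = 7.58e-10, edgeR), and both libraries were above all others. PDIA6 CPM was 303 and 311 in the vehicle libraries, 312 and 316 after 4 h and 301 and 306 after 24 h of enzalutamide, and 321 and 324 after 4 h and 413 and 406 after 24 h of DHT. PDIA4 CPM was 277 and 286 in the vehicle libraries, 284 and 275 after 4 h and 283 and 285 after 24 h of enzalutamide, and 276 and 277 after 4 h and 371 and 379 after 24 h of DHT. Both isomerases showed the same step at 24 h of DHT, 0.42 ± 0.03 for PDIA6 (adjusted p = 1.42e-07) and 0.41 ± 0.03 for PDIA4 (adjusted p = 2.60e-07), and with 24 h of enzalutamide they were at -0.02 and 0.01 (adjusted p = 0.726 and 0.816). P4HB and PDIA3 rose with DHT by 0.36 and 0.16 at 24 h, and with enzalutamide by 0.13 and 0.11, calls lost without vehicle replicate 1 or either enzalutamide library. ERO1A, outside the counts, was at 0.26 with 24 h of DHT (adjusted p = 0.00325). In the calnexin cycle CANX rose by 0.24 with enzalutamide and 0.17 with DHT at 24 h, UGGT1, the folding sensor that sends glycoproteins back to calnexin, by 0.18 and 0.29, and CALR was at -0.10 and 0.07 (adjusted p = 0.0354 and 0.0824). The enzalutamide calls of UGGT1 and CALR were lost in 9 and 4 of the alternatives (adjusted p up to 0.247 and 0.152). The translocon genes SEC61A1 and SEC61B rose by 0.21 and 0.36 with DHT, and SEC61A1 by 0.16 with enzalutamide.

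Setting the ligands against each other at 24 h gave 15 genes higher with DHT and 12 higher with enzalutamide (edgeR), and 31.3% and 33.6% of all genes tested were called in these directions. The genes higher with DHT were led by DERL3 (log2 1.86 ± 0.18, adjusted p = 9.54e-07), PDIA5 (1.30 ± 0.05), CREB3L4 (1.06 ± 0.05) and SDF2L1 (0.80 ± 0.06). Those higher with enzalutamide were led by HERPUD1 (-0.87 ± 0.04, adjusted p = 9.41e-10), ERN1 (-0.76 ± 0.06), ATF6 (-0.53 ± 0.04) and XBP1 (-0.52 ± 0.04). By role, 4 of the 5 disulfide enzymes were higher with DHT and 0 with enzalutamide. Of the 6 sensors and transcription factors, 4 were higher with enzalutamide and 1 with DHT. Of the 10 ERAD genes, 5 were higher with enzalutamide and 3 with DHT. The further list of 20 ERAD genes had 5 higher with enzalutamide and 12 higher with DHT. Among the genes whose promoter stretches are printed above, HSPA5, XBP1, HERPUD1 and HYOU1 were higher with enzalutamide (log2 -0.36, -0.52, -0.87 and -0.09), and HSP90B1 and SDF2L1 with DHT (0.30 and 0.80). Of the carriers not printed, CALR, CRELD2 and PDIA6 were called higher with DHT, and CANX was not called. The call of HYOU1 was lost in 7 alternatives, and genes with ERSE and with ERSE-II lay on both sides.

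The 2 times were also compared within each ligand. Between 4 and 24 h, 11 genes rose and 2 fell with enzalutamide (11.7% and 12.9% of all genes tested), and 23 rose and 5 fell with DHT (26.3% and 23.5%). With enzalutamide the largest rise was that of DNAJB9 (0.49 ± 0.08, adjusted p = 0.000420, edgeR), while HERPUD1, XBP1 and ERN1 differed between the times by 0.07, 0.04 and -0.08 (adjusted p = 0.281, 0.513 and 0.383), which were not past the threshold. With DHT all 5 disulfide enzymes and 6 of the 9 chaperones rose from 4 to 24 h, while HSPA5 fell (-0.12, adjusted p = 0.00192, edgeR). The largest rises were those of the ERAD gene DERL3 (1.22 ± 0.17) and of PDIA5 (1.09 ± 0.05). Of the libraries set against each other here, the 2 times carry different prefixes for enzalutamide and for DHT. Time and whatever the prefix marks therefore cannot be told apart. The columns of vehicle replicate 1 carry each prefix, but they were summed as 1 sample and hold no treated cells.

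In the siRNA experiment 25 μM enzalutamide raised 12 and lowered 15 of the genes in siControl cells (limma, adjusted p below 0.05 over 20369 genes), where 17.7% of all genes were called higher and 24.4% lower. The median log2 fold change was -0.03 for these genes and -0.02 for all genes tested. The direction differed by role: of the 6 sensors and transcription factors 4 were higher and 1 was lower, of the 10 ERAD genes 5 were higher and 3 lower, and of the 9 chaperones and 5 disulfide enzymes 1 was higher and 9 were lower. In siGATA2 cells the same treatment gave 0 called genes among the 35 (limma), against 0.221% higher and 0.191% lower of all genes, with an unadjusted p below 0.05 for 8 of the 35 and the lowest adjusted p at 0.317. The count stayed at 0 in every alternative run for it. The difference between the 2 responses, tested as an interaction, was past the threshold for 22 genes, 14 in the higher and 8 in the lower direction in siGATA2 cells, where 15% and 10.8% of all genes were. The labels of both experiments call the replicates biological without saying what was replicated, and the p-values measure the spread between these libraries.

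**Figure D4:**
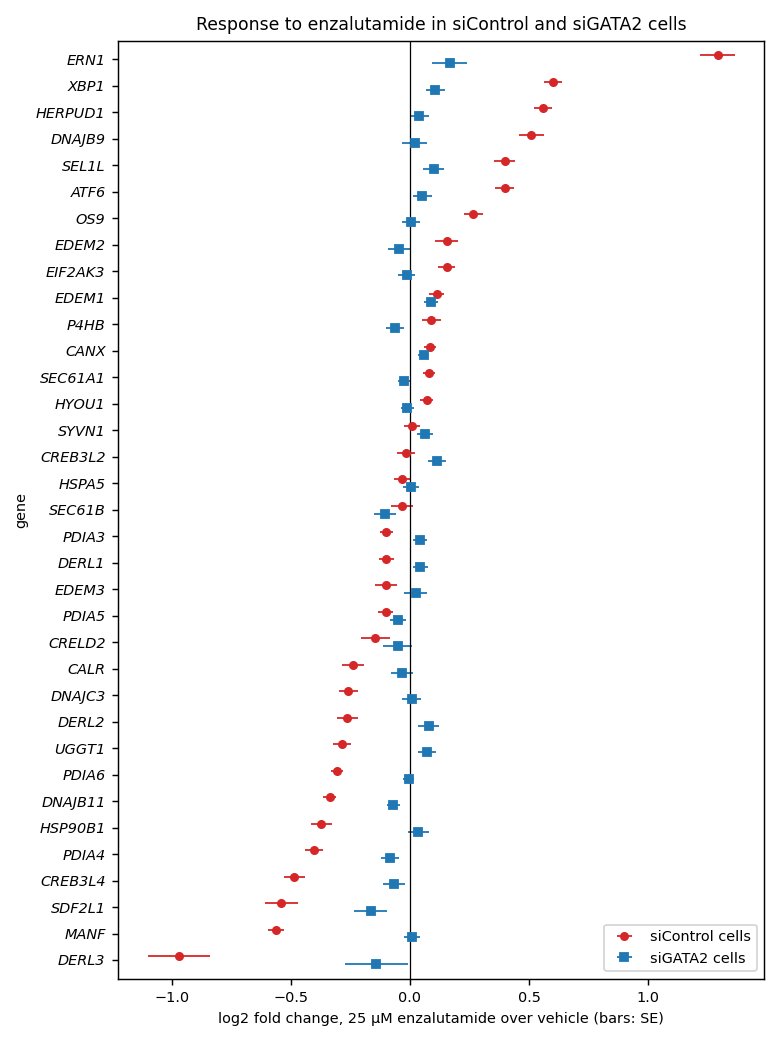
Log2 fold change (with its SE) of the 35 genes with 25 μM enzalutamide over vehicle, in siControl cells (circles) and in siGATA2 cells (squares), ordered by the value in siControl cells. The circles run from DERL3 at -0.97 to ERN1 at 1.29, and the squares stay between -0.17 and 0.17.

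ERN1 RPKM was 6.08, 5.67 and 5.76 in siControl cells with vehicle and 13.04, 14.8 and 15.5 with enzalutamide, against 3.25, 3.34 and 3.09 and 3.65, 3.94 and 3.33 in siGATA2 cells. ERN1 was highest in siControl cells with enzalutamide, and its siGATA2 libraries lay below all siControl libraries. The log2 response was 1.29 ± 0.07 (adjusted p = 4.26e-07, limma) in siControl cells and 0.17 ± 0.07 (adjusted p = 0.452) in siGATA2 cells, and the interaction was -1.13 ± 0.10 (adjusted p = 4.15e-05). XBP1 RPKM was 122, 125 and 125 in siControl cells with vehicle and 185, 182 and 197 with enzalutamide, against 100.4, 94.4 and 95.3 and 104, 108 and 101 in siGATA2 cells. XBP1 followed the same order of groups, with a response of 0.60 ± 0.04 (adjusted p = 9.01e-07) against 0.11 ± 0.04 and an interaction of -0.50 ± 0.05 (adjusted p = 0.000126). HERPUD1 RPKM was 66.4, 63.6 and 64.5 in siControl cells with vehicle and 90.4, 96.1 and 101 with enzalutamide, against 54.6, 54.1 and 53.2 and 54.8, 57.5 and 54.1 in siGATA2 cells. The siControl libraries with enzalutamide were again above all others, and the response of HERPUD1 was 0.56 ± 0.04 against 0.04 ± 0.04, with an interaction of -0.52 ± 0.05 (adjusted p = 9.85e-05, limma). ATF6 RPKM was 9.696, 9.82 and 9.61 in siControl cells with vehicle and 12.1, 12.6 and 13.8 with enzalutamide, against 10.5, 10.6 and 10.7 and 11.1, 10.8 and 10.98 in siGATA2 cells. SEL1L RPKM was 19.9, 21.96 and 20.1 in siControl cells with vehicle and 26.5, 26.4 and 28.8 with enzalutamide, against 12.9, 12.7 and 13.2 and 14.2, 13.6 and 13.9 in siGATA2 cells. Both showed their highest values in siControl cells with enzalutamide, with responses there of 0.40 ± 0.04 for ATF6 and 0.40 ± 0.04 for SEL1L and interactions of -0.35 ± 0.06 (adjusted p = 0.00140) and -0.30 ± 0.06 (adjusted p = 0.00609).

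DNAJB9 RPKM was 8.94, 8.97 and 8.86 in siControl cells with vehicle and 12.1, 12.3 and 13.9 with enzalutamide, against 12.2, 13.3 and 12.7 and 12.6, 12.7 and 13.5 in siGATA2 cells. Here the siGATA2 libraries with vehicle overlapped the siControl libraries with enzalutamide: DNAJB9 was higher by 0.51 ± 0.05 with siGATA2 in vehicle (adjusted p = 1.27e-05, limma) and by 0.51 ± 0.05 with enzalutamide in siControl cells (adjusted p = 3.14e-05). EIF2AK3 RPKM was 6.603, 6.94 and 6.38 in siControl cells with vehicle and 7.53, 7.199 and 7.47 with enzalutamide, against 8.08, 8.03 and 7.84 and 7.86, 7.67 and 8.18 in siGATA2 cells. For PERK the steps were smaller, 0.15 ± 0.04 with enzalutamide (adjusted p = 0.00632) and 0.26 ± 0.04 with siGATA2 in vehicle (adjusted p = 0.000114), and the call of its interaction was lost in 9 alternatives (adjusted p from 0.0131 to 0.0809). EDEM1 RPKM was 17.8, 18.6 and 18.4 in siControl cells with vehicle and 19.1, 19.7 and 20.4 with enzalutamide, against 19.7, 19.1 and 20.1 and 21.4, 20.6 and 20.7 in siGATA2 cells. The groups of EDEM1 lay close together, with a response of 0.11 ± 0.03 in siControl cells (adjusted p = 0.0133), not called without the first siControl vehicle or the third siControl enzalutamide library.

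Most folding genes fell with enzalutamide in siControl cells. MANF RPKM was 158, 154 and 166 in siControl cells with vehicle and 109.8, 108 and 106 with enzalutamide, against 144, 148 and 154 and 148, 149.6 and 151 in siGATA2 cells. The siControl libraries with enzalutamide were below all 9 others. MANF fell by 0.56 ± 0.03 in siControl cells (adjusted p = 5.71e-07, limma), and the interaction was 0.57 ± 0.05 (adjusted p = 2.13e-05). DERL3 RPKM was 1.22, 1.099 and 1.02 in siControl cells with vehicle and 0.494, 0.554 and 0.507 with enzalutamide, against 1.14, 0.8098 and 0.781 and 0.741, 0.891 and 0.789 in siGATA2 cells. DERL3 was lowest in the same 3 libraries, although at about 1 RPKM and below, and its response was -0.97 ± 0.13 (adjusted p = 0.000174) with an interaction of 0.83 ± 0.19 (adjusted p = 0.00832). With the pseudocount of 0.1 RPKM this understates the change of so low a gene. SDF2L1 RPKM was 47.6, 42.8 and 50.6 in siControl cells with vehicle and 33.005, 33.7 and 29.97 with enzalutamide, against 34.98, 37.8 and 32.7 and 31.05, 31.97 and 30.9 in siGATA2 cells. CREB3L4 RPKM was 25.8, 25.3 and 25.6 in siControl cells with vehicle and 18.4, 19.3 and 17.1 with enzalutamide, against 21.9, 21.5 and 23.7 and 21.3, 20.9 and 21.7 in siGATA2 cells. In both genes every siControl library with vehicle was above the other groups, and the responses in siControl cells were -0.54 ± 0.07 for SDF2L1 (adjusted p = 0.000120) and -0.49 ± 0.05 for CREB3L4 (adjusted p = 1.39e-05).

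HSP90B1 RPKM was 528, 548 and 516 in siControl cells with vehicle and 431, 395 and 404 with enzalutamide, against 737, 766 and 761 and 767, 767 and 787 in siGATA2 cells. HSP90B1 was lowest in siControl cells with enzalutamide and highest in siGATA2 cells: it fell with enzalutamide in siControl cells by 0.37 ± 0.04 (adjusted p = 7.44e-05, limma) and was 0.51 ± 0.04 higher with siGATA2 in vehicle and 0.92 ± 0.04 higher under enzalutamide (adjusted p = 2.99e-06 and 3.52e-08). HSPA5 RPKM was 266, 263 and 266 in siControl cells with vehicle and 256, 257 and 264 with enzalutamide, against 382, 412 and 403 and 399.6, 403 and 398 in siGATA2 cells. BiP separated by siRNA, not by drug, with siGATA2 above siControl by 0.59 ± 0.03 in vehicle (adjusted p = 9.12e-08), and its response to enzalutamide was -0.03 ± 0.03 (adjusted p = 0.468) in siControl and 0.00 ± 0.03 in siGATA2 cells. PDIA5 RPKM was 35.4, 34.3 and 33.97 in siControl cells with vehicle and 32.7, 31.9 and 31.9 with enzalutamide, against 15.4, 16.6 and 15.7 and 15.8, 14.8 and 15.3 in siGATA2 cells. PDIA5 also separated by siRNA, lower in siGATA2 cells by 1.12 ± 0.03 (adjusted p = 1.27e-09), and its small response to enzalutamide (-0.10) lost its call in 6 alternatives (adjusted p from 0.0167 to 0.348). PDIA4 RPKM was 213, 196 and 215 in siControl cells with vehicle and 159, 160.05 and 153 with enzalutamide, against 147, 149 and 143 and 137, 142 and 135 in siGATA2 cells. PDIA6 RPKM was 107, 105 and 105 in siControl cells with vehicle and 87.4, 86.1 and 83.2 with enzalutamide, against 88.8, 90.7 and 92.7 and 90.7, 90.6 and 89.9 in siGATA2 cells. Both isomerases were highest in siControl cells with vehicle. Their responses to enzalutamide in siControl cells were -0.40 ± 0.04 for PDIA4 and -0.31 ± 0.02 for PDIA6 (adjusted p = 1.36e-05 and 4.23e-06), and the interactions were 0.32 ± 0.05 and 0.30 ± 0.03 (adjusted p = 0.00162 and 0.000162). Of the other folding genes, CRELD2, CALR and DNAJB11 were at -0.15, -0.24 and -0.34 in siControl cells with enzalutamide (adjusted p = 0.0757, 0.00191 and 5.96e-06).

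**Figure D5:**
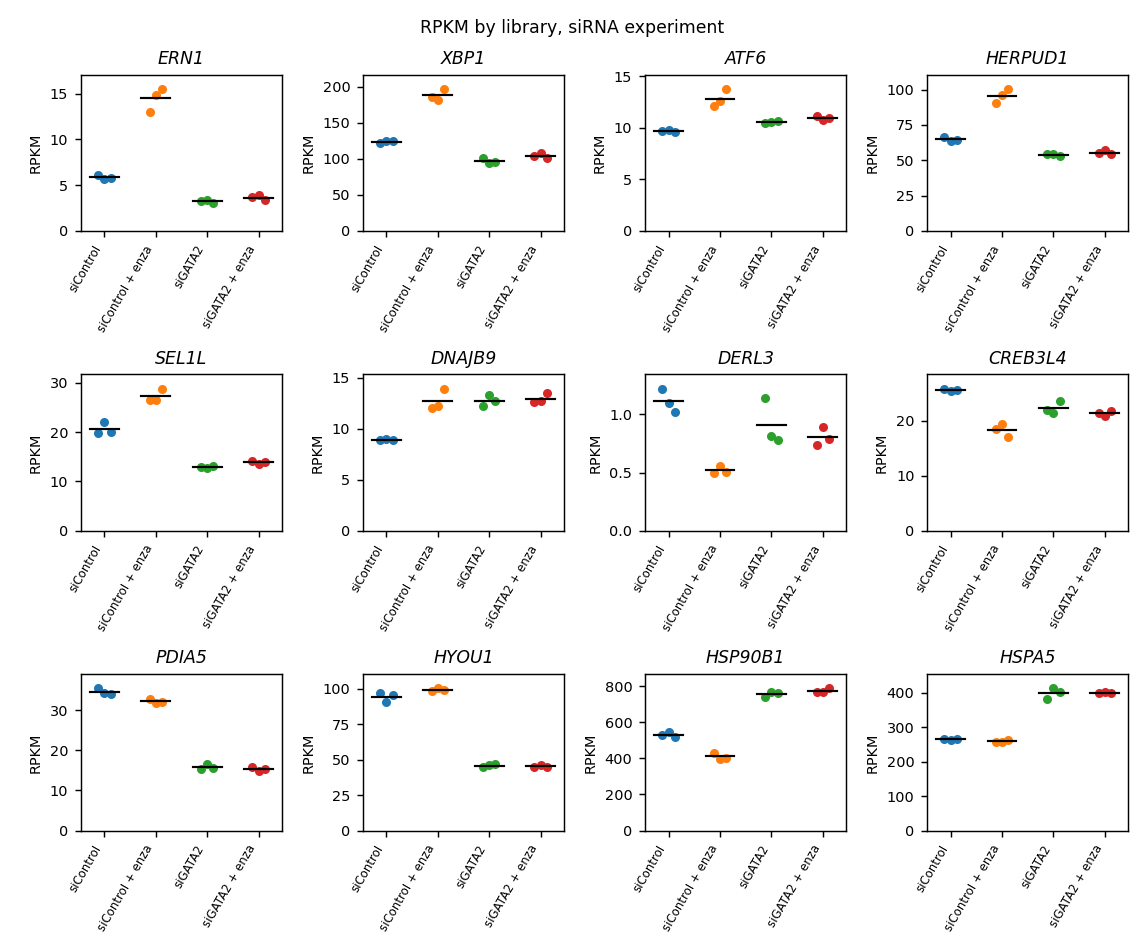
RPKM (from 0) of 12 genes in the 12 siRNA libraries; each point is a library and each bar the mean of 3. For ERN1, XBP1, ATF6, HERPUD1 and SEL1L the siControl libraries with enzalutamide are the highest, while PDIA5, HYOU1, HSP90B1 and HSPA5 separate the siRNA pools.

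Most of the genes also differed between the siRNA pools, where loss of GATA2 cannot be told apart from other effects of the pool. In vehicle 13 were higher and 17 lower in siGATA2 than in siControl cells (24.2% and 31.4% of all genes tested), with a median log2 difference of -0.10 against -0.03 for all genes. Under enzalutamide 16 were higher and 14 lower (26.3% and 28.1%), with a median of 0.08 against -0.00. With the replicate number as a block, since same-numbered libraries deviated together in this comparison, EDEM1 and OS9 lost their calls under enzalutamide (adjusted p = 0.0593 and 0.0719, limma). Beyond the genes above, the largest differences, singled out after their values were seen, were those of CREB3L2 and HYOU1. CREB3L2 RPKM was 18.02, 17.8 and 17.6 in siControl and 5.08, 4.73 and 4.53 in siGATA2 cells with vehicle, a log2 difference of -1.88 ± 0.04 (adjusted p = 1.19e-10), and under enzalutamide the difference was -1.75 ± 0.04. HYOU1 RPKM was 96.98, 91.1 and 95.8 and 44.7, 46.2 and 46.8 in the same groups, a difference of -1.04 ± 0.03 (adjusted p = 5.30e-10). HYOU1, which exchanges the nucleotide of BiP, and BiP itself thus went opposite ways with siGATA2. Both translocon genes were lower (-0.35 for SEC61A1 and -0.30 for SEC61B), as was SEL1L (-0.67), while its ligase partner SYVN1 was higher (0.39) and PDIA3 and CANX, which act on the same glycoproteins, were higher (0.37 and 0.27).

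The experiments shared no samples, so the responses to 24 h of enzalutamide, at 10 μM in the ligand experiment and at 25 μM in siControl cells, can be set side by side. The genes called in both numbered 20, which is 76.9% of the 26 called in the first and 74.1% of the 27 called in the second. Over the 15404 genes tested in both experiments, 3729 were called in both, which is 72.1% and 46.4% of those called in each. Of the 20 genes, 12 were higher in both (DNAJB9, CANX, SEC61A1, HERPUD1, EDEM1, EDEM2, SEL1L, OS9, XBP1, ATF6, ERN1 and EIF2AK3) and 4 lower in both (SDF2L1, CALR, DERL3 and CREB3L4). Those moving the same way were thus 16 of 20 (80%), beside 95.6% of the genes called in both over all genes tested. The other 4, DNAJC3, PDIA3, UGGT1 and DERL2, were higher in the ligand experiment and lower in siControl cells, with log2 values of 0.23 and -0.26 for DNAJC3 and 0.18 and -0.29 for UGGT1. MANF, HSP90B1 and PDIA4, called lower in siControl cells, were at 0.04, 0.02 and 0.01 in the ligand experiment. In turn HSPA5, HYOU1, CREB3L2, P4HB, EDEM3 and SYVN1 were called higher in the ligand experiment and not called in siControl cells. The ligand calls of P4HB, EDEM3 and SYVN1 were lost in some alternatives. Dose, transfection and sequencing platform differed between the experiments and cannot be told apart here.

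Other genes of the pathway were counted from lists of 111 symbols on further folding, translocation and glycosylation, ERAD, ER to Golgi transport and regulators of the unfolded protein response. After 24 h of enzalutamide 40 of the 108 tested were higher and 14 lower (edgeR, beside 16.4% and 17% of all genes), and after 24 h of DHT 61 were higher and 13 lower (beside 26.9% and 23.2%). The median log2 fold change of these lists was 0.08 and 0.19, beside 0.01 and 0.00 for all genes tested. By list, DHT raised 15 of 21 other folding genes, 19 of 25 translocation and glycosylation genes and 17 of 24 transport genes, but 2 of 18 regulators, of which 8 were lower. Enzalutamide raised 8 of these 18 regulators and lowered 5. Of 20 other ERAD genes it raised 5 and lowered 6, where DHT raised 8 and lowered 1. The largest rises with enzalutamide were those of CHAC1, a glutathione-degrading enzyme induced through ATF4, at 1.47 ± 0.08 and DDIT3 (CHOP) at 1.37 ± 0.06. The same genes fell with DHT, by 0.68 ± 0.09 and 0.54 ± 0.06. The largest falls with enzalutamide were those of the regulator TRAF2, at -0.45 ± 0.07, and of UBE2J2 of ERAD, at -0.24 ± 0.05. CLGN, a relative of calnexin, and SEC11C, a signal peptidase subunit, led the rises with DHT (0.88 ± 0.04 and 0.70 ± 0.04). In siControl cells 28 of 110 were higher and 31 lower with enzalutamide (limma), which is 25.5% and 28.2% beside 17.7% and 24.4% of all genes, with CHAC1 at 2.87 ± 0.17 and DDIT3 at 2.25 ± 0.08, and UFD1 and UBE2G2 of ERAD fell by 0.53 ± 0.05 and 0.39 ± 0.04. Under enzalutamide siGATA2 cells had 42 of these 110 higher and 41 lower than siControl cells (38.2% and 37.3%, beside 26.3% and 28.1% of all genes), with CHAC1 at -4.29 ± 0.17 and TRIB3, a pseudokinase induced with CHOP, at -2.28 ± 0.08, and with MBTPS2, the protease that releases ATF6, at 0.88 ± 0.03. The low gene CREB3L1 was at 1.44 ± 0.22.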

How the data were processed

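Poly(A) RNA of LNCaP cells was sequenced from directional libraries on different Illumina HiSeq instruments in the ligand and siRNA experiments. The submitters' processing notes name TopHat2 2.0, Partek and hg19, and whether counting used strand is not given in the sources used here. For the ligand experiment the authors deposited estimated counts per gene, which need not be whole, and for the siRNA experiment the authors deposited RPKM, from which the depth in reads cannot be recovered.

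The 3 columns numbered vehicle replicate 1, each with another prefix in its name, differed by less than the replicates did (mean chi-square per gene 1.55 to 1.59, against 3.73 to 3.92 with replicate 2) and were summed as 1 sample. The labels list 4 vehicle samples as biological replicates. Estimated counts were rounded and tested by quasi-likelihood in edgeR 4.0.16 with TMM factors, edgeR's filter on low counts and a single fit over all 5 groups (15555 genes). RPKM were tested with limma 3.58.1 (trend) on log2(RPKM + 0.1) for genes above 0 in at least 3 libraries (20369 genes), so fold changes of low genes are understated. Adjusted p-values are Benjamini-Hochberg values over all genes tested, with a threshold of 0.05 and two-sided tests, and SE is that of the fit. R 4.3.3, Python 3.11.15 and matplotlib 3.10.9 were used. The fits were also run on data simulated with the spread of these libraries, which cannot show how well the fits suit the libraries themselves.

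The members, their roles and the other gene lists were chosen with earlier results of these data known. Values in every library are given for the members called against vehicle in both experiments with the largest fold changes (the first 16), for the sensors, XBP1 and HSPA5. Of the other lists, those named are the 2 called genes of largest fold change in each direction. Alternatives were DESeq2 1.42.0, other scalings, filters, pseudocounts and vehicle runs, a replicate block, leaving out each library and a rule of fold above 2. Same-numbered siRNA libraries of siControl and siGATA2 cells under enzalutamide deviated together from their group means (correlations of 0.11 to 0.24 over 3 pairs), a pairing taken from the numbers in the labels.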

Additional observations from a re-analysis of the deposited data

Results flagged for a closer look

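The results listed here are effects that differed between times or between siRNA pools by a test of the difference itself, given as log2 values. For enzalutamide, 13 genes differed between 24 and 4 h (edgeR, adjusted p below 0.05). Lower at 24 h were EIF2AK3 (-0.24) and DNAJB11 (-0.18). Higher at 24 h were translocon, lectin and chaperone genes among others, namely DNAJB9 (0.49), SEL1L (0.23), ATF6 (0.22), HYOU1 (0.22), HSPA5 (0.20), OS9 (0.20), CREB3L2 (0.20), SEC61A1 (0.16), CANX (0.15), P4HB (0.12) and PDIA3 (0.11). For DHT, 28 genes differed between 24 and 4 h (edgeR). Lower at 24 h were ERN1 (-0.88), ATF6 (-0.16), HERPUD1 (-0.13), HSPA5 (-0.12) and OS9 (-0.11), of which ERN1 and ATF6 are sensors. The genes higher at 24 h by more than 0.3 were DERL3 (1.22), PDIA5 (1.09), CREB3L4 (0.90), SDF2L1 (0.64), CRELD2 (0.51), MANF (0.46), PDIA4 (0.44), P4HB (0.40), PDIA6 (0.35) and SEC61B (0.32). Those higher by less were HSP90B1 (0.29), UGGT1 (0.27), EDEM3 (0.26), HYOU1 (0.23), SEC61A1 (0.23), XBP1 (0.22), SYVN1 (0.21), CREB3L2 (0.20), DERL1 (0.16), PDIA3 (0.15), DNAJC3 (0.15), CALR (0.12) and CANX (0.11).

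The response to enzalutamide differed between siGATA2 and siControl cells for 22 genes (limma interaction). It was lower in siGATA2 cells for sensors, XBP1, ERAD genes and DNAJB9, namely ERN1 (-1.13), HERPUD1 (-0.52), XBP1 (-0.50), DNAJB9 (-0.49), ATF6 (-0.35), SEL1L (-0.30), OS9 (-0.26) and EIF2AK3 (-0.17). It was higher in siGATA2 cells, where siControl cells had lower values with the drug, for DERL3 (0.83), MANF (0.57), CREB3L4 (0.42), HSP90B1 (0.41), SDF2L1 (0.38), UGGT1 (0.36), DERL2 (0.34), PDIA4 (0.32), PDIA6 (0.30), DNAJB11 (0.27), DNAJC3 (0.27), CALR (0.21), DERL1 (0.14) and PDIA3 (0.14). All of these differences rest on the same libraries as the report, and the column prefixes of the 4 h and 24 h libraries differed as described there.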

How the results depend on the processing

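The alternatives were 21 settings for the ligands and 20 for the siRNA experiment, counting the rule of fold above 2. That rule was applied to the counts of members alone. In all other settings 186 of the 243 calls of members over all comparisons were kept. The other 57 calls were lost in at least 1 setting, and 0 calls changed sign. Leaving out a library in turn gave between 6 and 14 called members for 4 h of enzalutamide, 16 and 26 for 24 h, 2 and 6 for 4 h of DHT, 22 and 26 for 24 h of DHT, 9 and 15 and 21 and 28 for the times within enzalutamide and DHT, 24 and 29 between the ligands, 22 and 28 for enzalutamide in siControl cells, 28 and 30 and 27 and 32 for siGATA2 in vehicle and under enzalutamide, and 19 and 22 for the interaction. The lowest counts came without vehicle replicate 2 or the second library for 4 h of enzalutamide (6 each), without either library for 24 h (16 each, and 17 without vehicle replicate 1) and without the second library for 4 h of DHT (2). With a fold above 2 and an unadjusted p below 0.05 in place of the adjusted p, the counts were 0, 0, 0 and 2 for enzalutamide at 4 and 24 h and DHT at 4 and 24 h, 0 and 2 for the times within enzalutamide and DHT, 3 between the ligands, 1 for enzalutamide in siControl cells, 3 and 4 for siGATA2 in vehicle and under enzalutamide, and 1 for the interaction, since most members moved by less than 2-fold. With the replicate number as a block, counts were 11 and 24 for enzalutamide at 4 and 24 h, 3 and 25 for DHT at 4 and 24 h, 14 and 28 for the times within enzalutamide and DHT, 26 between the ligands, 26 and 0 for enzalutamide in siControl and siGATA2 cells, 30 and 28 for siGATA2 in vehicle and under enzalutamide, and 19 for the interaction. Same-numbered libraries correlated at -0.14 to 0.10 for the ligands and at -0.34 to 0.28 for siRNA. Within siGATA2 cells, vehicle against enzalutamide, the 3 pairs ran from -0.20 to 0.28. Apart from siControl and siGATA2 cells under enzalutamide, no siRNA groups had every pair above 0.1. Whether the numbers mark a pairing there is not known. Other scalings moved the median of all genes by at most 0.06 (log2). With 2 replicates a group, small differences in the ligand experiment limit the calls, and RPKM carry no read depth for low genes such as DERL3.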

Other observations

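The other lists also moved with siGATA2 in vehicle. Of 20 other ERAD genes 12 were higher and 4 lower than in siControl cells, and of 20 other regulators of the unfolded protein response 11 were higher and 5 lower (limma, adjusted p below 0.05), where 24.2% of all genes tested were called higher and 31.4% lower. Of 25 translocation and glycosylation genes 6 were higher and 13 lower, as were 3 and 8 of 21 other folding genes. The median log2 differences of these 4 lists were 0.12, 0.14, -0.12 and -0.04, beside -0.03 for all genes. Transport genes from the ER to the Golgi lay between, with 11 of 24 higher and 8 lower. Under enzalutamide 13 of the 20 other ERAD genes were higher and 3 lower in siGATA2 cells, beside 26.3% and 28.1% of all genes tested, and 3 of the 21 other folding genes were higher and 13 lower.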
